A study of Mus musculus with 10 samples.

Results

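The 30 genes described here encode receptors for serotonin, noradrenaline and adrenaline, acetylcholine, histamine and dopamine, all of them coupled to G proteins. They were chosen by name from the deposited table of gene counts, and all 30 were found among its 56691 genes. The set holds 10 serotonin receptor genes, 8 adrenergic, 5 muscarinic, 3 histamine and 4 dopamine receptor genes. In a normalized test of 18440 genes with enough counts, 29 of the 30 could be compared, and Htr2b was the gene left out.

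The libraries came from the ventral tegmental area, a midbrain region rich in dopaminergic neurons, of male C57BL/6 mice whose genotype is labelled WT. There were 5 libraries from mice held in acute restraint, a short stressor that keeps the animal from moving, for 30 min, and 5 from control mice without restraint, labelled Normal. In both groups, RNA bound to ribosomes was pulled from dopaminergic neurons through the tagged protein NBL10-HA. The promoter or Cre line that drives the tag, the age of the mice and whether animals were pooled are not given in the sources used here. Nothing in the labels states that libraries of a group came from separate mice, so p-values measure only the spread between these libraries. The study asked which signalling pathways restraint changes in these neurons.

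Amine receptors sit in the cell membrane and pass the signal of a transmitter to a G protein inside the cell. Receptors that couple to Gs raise cyclic AMP through adenylyl cyclase, those that couple to Gi/o lower it and open potassium channels, and those that couple to Gq/11 act through phospholipase C, inositol trisphosphate and calcium. Ventral tegmental dopamine neurons and their neighbours receive serotonin from the raphe nuclei, noradrenaline from the locus coeruleus, acetylcholine from the mesopontine tegmentum and histamine from the hypothalamus.

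Library totals ran from 56082358 to 86584968 counts. Restraint 1 stood apart, scoring -92.1 on principal component 1 of log2 CPM (read counts scaled to a common library total), against -4.1 to 19.2 for the other 9 libraries, so values without it are given where they differ at a threshold used here. Markers of other cells were present throughout. Astrocyte markers summed to 4232 to 5302 CPM in restraint libraries and 3720 to 4307 CPM in control libraries over 7 genes, led by Gfap. Dopamine neuron markers summed to 1906 to 2588 CPM in restraint libraries and 1689 to 2324 CPM in control libraries over 9 genes, with Th, the rate-limiting enzyme of dopamine synthesis, at 477 ± 65.3 CPM in restraint and 411 ± 78.6 CPM in control libraries (SD, n = 5 each). Of the 9 dopamine neuron markers, 7 had a positive and 2 a negative fold change of restraint over control. No marker of any of the 12 lists was at 0 in every library. The receptor levels below are therefore those of the pulled-down mixture, in which fewer cells of a type and less RNA per cell cannot be told apart.

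No amine receptor gene passed the threshold of 0.05 for the adjusted p, either higher or lower, in edgeR's quasi-likelihood test with Benjamini-Hochberg adjustment over 18440 genes. The smallest adjusted p of a member was 0.275. Among all genes tested the share past that threshold was 0.0217%, with 0.00542% higher and 0.0163% lower, against which 0 of 29 members is no result about these genes. DESeq2, which called 1.8% of all genes, and limma-voom, which called 0.0217%, also called 0 members, although DESeq2 gave no adjusted p for 13 of the 29. At an unadjusted p under 0.05 the count was 2 of 29, or 6.9%, with each of these 3 tools, and the share of all genes with edgeR was 11.7%. Adra2a was the 1 member on the higher side after restraint, where 5.64% of all genes were, and Htr7 the 1 on the lower side, where 6.04% were. Leaving out 1 library at a time, the count was 0 higher without restraint 2 or control 3, and 2 lower without restraint 1 or restraint 5. The restraint and control libraries overlapped in CPM for all 30 members, while they did not overlap for 2.61% of the genes tested (1.25% higher and 1.36% lower).

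The fold changes were small where the counts were high. Over the 29 members tested, the median log2 fold change of restraint over control was -0.08, against -0.00 over all genes. Of the members, 8 were positive and 21 negative, and of all 18440 genes tested 9146 were positive and 9294 negative. For 23 of the 29 the 95% interval of the fold change lay within a 2-fold change in either direction, and for 17 within 1.5-fold. The intervals of Htr1f, Adra1d, Adra2b, Chrm5, Drd3 and Drd4 reached beyond 2-fold. Among the 21 members with a median of at least 100 counts, every interval lay between 0.553-fold and 1.58-fold. The median standard error was 0.18 on the log2 scale for the members tested and 0.14 for all genes.

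**Figure D1:**
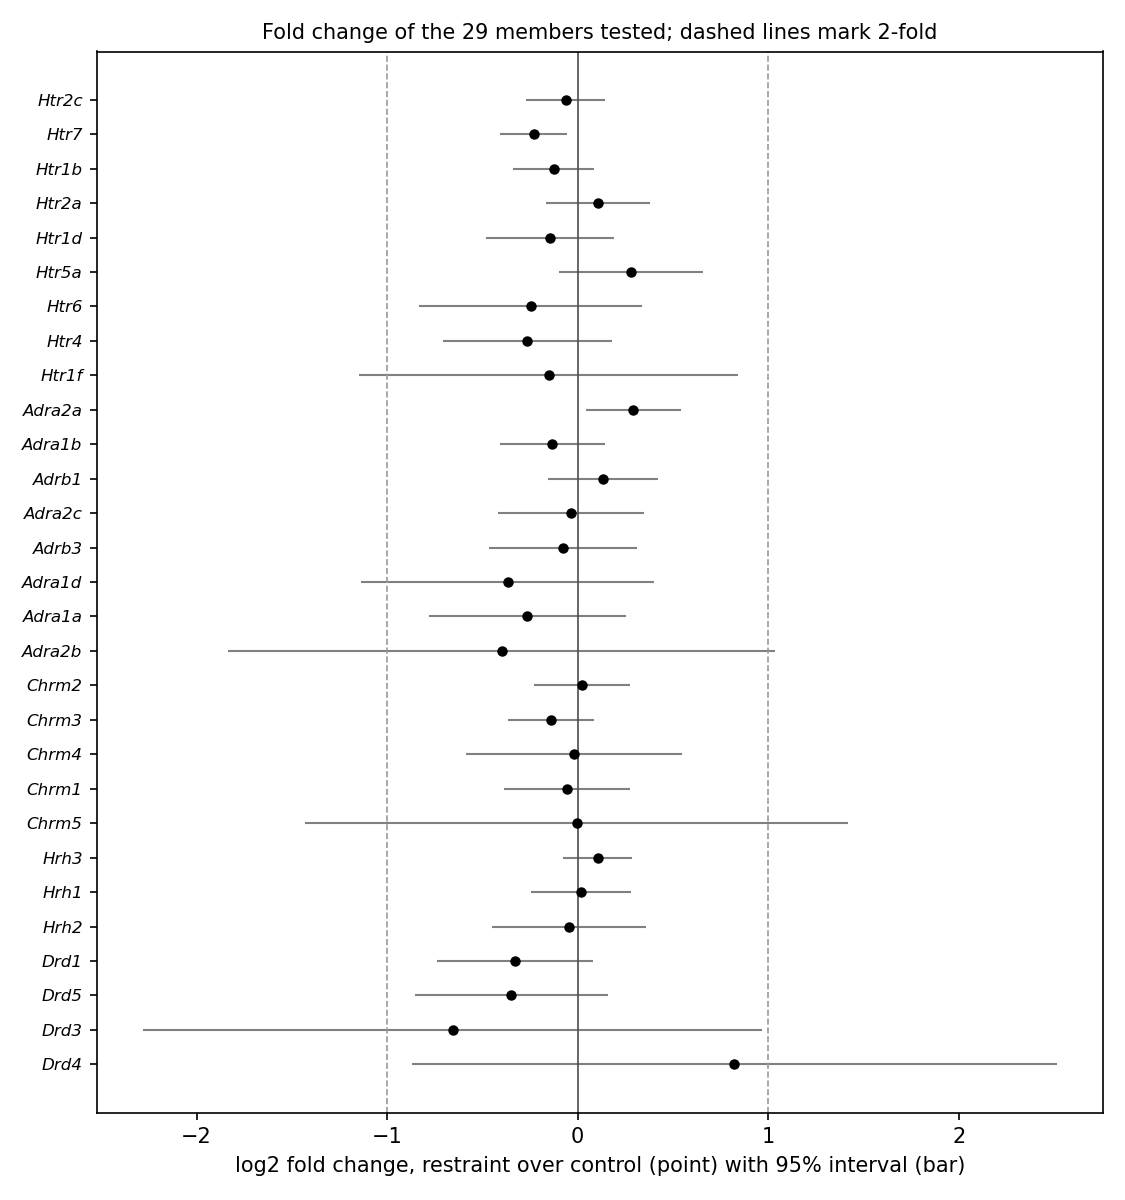
Log2 fold change of restraint over control for the 29 members tested, from edgeR, with its 95% interval as a bar; the dashed lines mark a 2-fold change. Only the bars of Adra2a (right of 0) and Htr7 (left of 0) miss the line at 0, and the long bars belong to members with few counts.

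Levels of different genes were compared as CPM per kilobase of exon, averaged over all 10 libraries. They spanned from 17.7 for Htr2c to 0.0259 for Htr2b, with 15 members above 1 and 3 under 0.1. Htr2c, Hrh3, Adra2a and Htr7 were the 4 highest, at 17.7, 15.2, 11.1 and 8.54 CPM per kilobase, and held 51.2 to 56.4% of the summed level of the 30 in each library. These 4 lay at the 83.6th, 81.3rd, 76.1st and 71.1st percentile of level among the 18440 genes tested. In all, 11 members lay above the 50th percentile. Neighbours in the order were not all separable: Htr2c stood above Hrh3 in 7 of 10 libraries, Adra2a above Htr7 in 8, and Htr1b above Adra1b in 5. Hrh3 stood above Adra2a, and Htr7 above Htr1b, in 10 of 10 libraries. Between restraint and control, 20 of 30 members held the same rank, and the largest difference was 3 places, for Drd1.

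**Figure D2:**
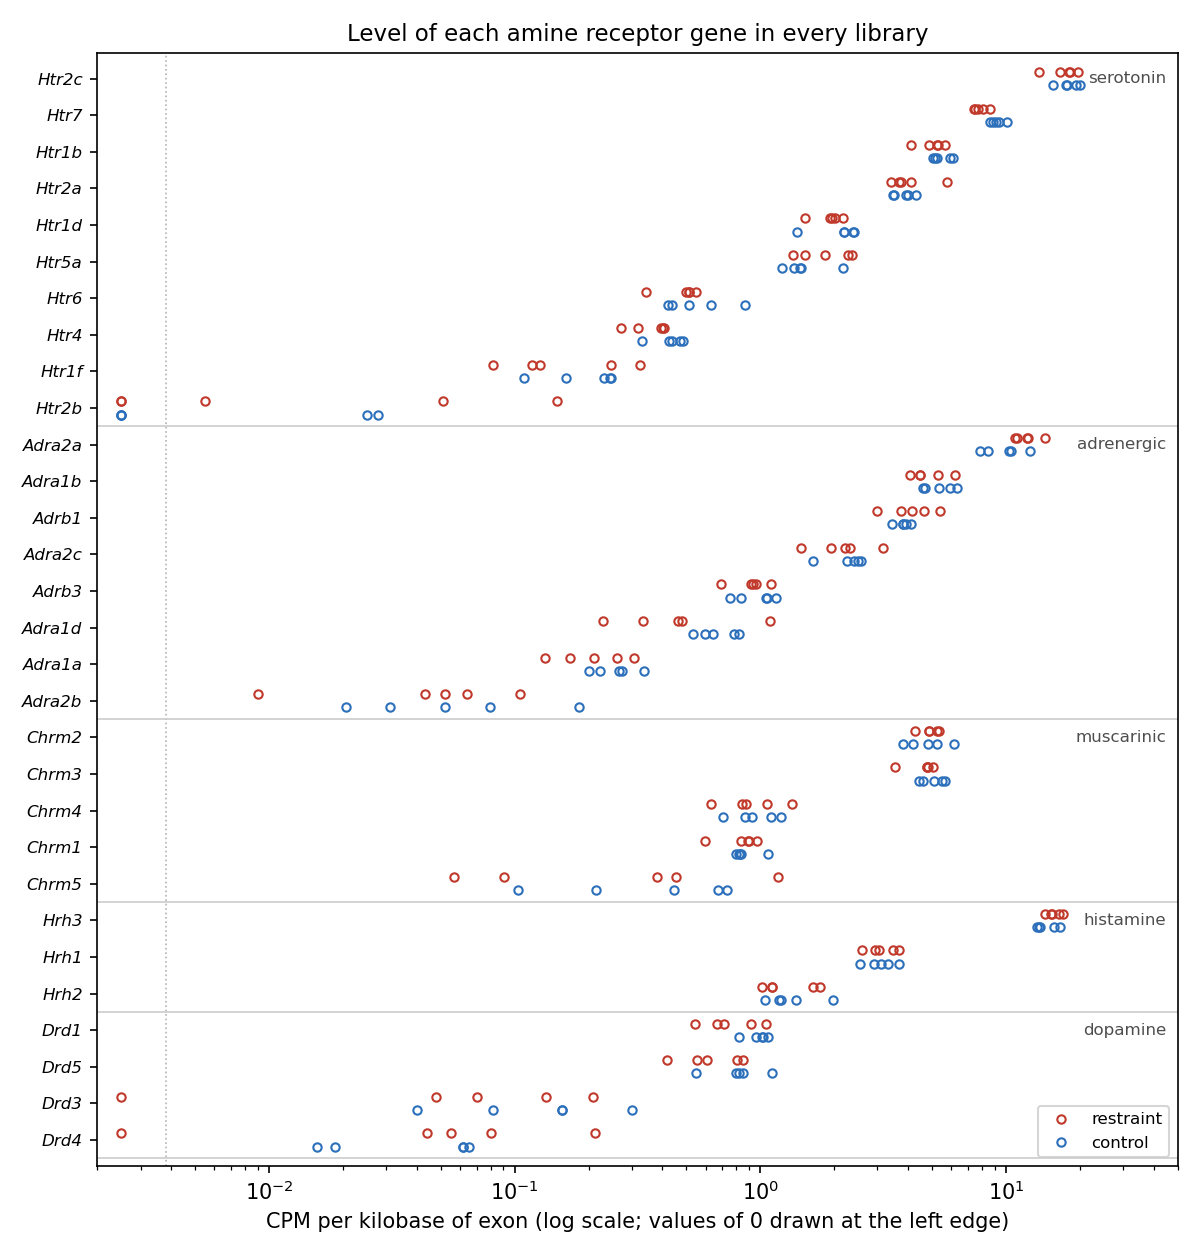
Level of each member in CPM per kilobase of exon (log scale) in 5 restraint libraries (red) and 5 control libraries (blue), grouped by transmitter; libraries with 0 counts are drawn at the left edge. The 2 groups overlap in every row, and levels run from 17.7 for Htr2c to 0.0259 for Htr2b as means of 10 libraries.

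Fewer than 6 of the 10 libraries reached 10 counts for Htr2b and Drd3, the members that fell below the count minimum. Htr2b, a Gq/11-coupled receptor best known from heart valves and blood vessels, had 22, 0, 6, 0 and 1 counts in restraint libraries and 0, 4, 4, 0 and 0 counts in control libraries. It reached 10 counts in 1 library of 10. Drd3, a Gi/o-coupled dopamine receptor of limbic regions, reached 10 counts in 5 of 10 libraries. It had 0 to 0.358 CPM in restraint and 0.0687 to 0.517 CPM in control libraries. The other 28 members had at least 10 counts in 6 or more libraries, and 27 members had a count in every library.

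Adra2a encodes the alpha-2A adrenergic receptor, the Gi/o-coupled receptor that acts as the main autoreceptor of noradrenergic neurons and also sits on the cells they contact. It lies on chromosome 19 at 54032582 to 54037413 (GRCm39), in 1 merged exon that no other annotated gene overlaps. Its level was 59.5, 69.7, 58.8, 53.5 and 52.8 CPM in restraint libraries 1 to 5, against 49.99, 38.0, 40.9, 50.6 and 60.6 CPM in control libraries 1 to 5. All 5 restraint libraries stood above the control median, and control 5 stood above 4 of them, so the groups overlapped. The means were 58.9 ± 6.75 CPM in restraint and 48.0 ± 8.94 CPM in control libraries (SD, n = 5 each), and the log2 fold change was 0.29 ± 0.12 (SE). The unadjusted p of 0.0243 became an adjusted p of 0.334 over all genes in edgeR. Leaving out restraint 2, control 2 or control 3 gave an unadjusted p of 0.0825, 0.0597 or 0.0621 in edgeR, with log2 fold changes of 0.22, 0.23 and 0.25. The astrocyte marker sum, led by Gfap, was also on the higher side after restraint, though the groups overlapped. Of its 7 markers, 5 had a positive and 2 a negative fold change. The part of astrocyte RNA in the Adra2a difference was not tested. Among the adrenergic genes Adra2a had the highest level in 10 of 10 libraries, above Adra1b.

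The promoters of Adra2a and Htr7 are shown because these were the members with the smallest p. RefSeq windows of 300 bases, 250 before and 50 after the start, were available for 25 of the 30 members (GRCm38.p6, a build other than that of the gene coordinates above). In the first, chr19:54045009-54045308 on the plus strand, capitals mark a GC box (GGGCGG) and a TATA box (TATAAA), and 68.7% of the bases are G or C. In the second, chr19:36057311-36057610 on the minus strand, none of the motifs searched was found, and 81.0% of the bases are G or C.
Adra2a promoter: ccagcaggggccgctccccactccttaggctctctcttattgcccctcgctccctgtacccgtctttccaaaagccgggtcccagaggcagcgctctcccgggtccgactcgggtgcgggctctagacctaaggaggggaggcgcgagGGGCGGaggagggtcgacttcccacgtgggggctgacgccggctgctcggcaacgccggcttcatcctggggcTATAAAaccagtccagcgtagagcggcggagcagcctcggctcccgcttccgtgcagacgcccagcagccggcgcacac
Htr7 promoter: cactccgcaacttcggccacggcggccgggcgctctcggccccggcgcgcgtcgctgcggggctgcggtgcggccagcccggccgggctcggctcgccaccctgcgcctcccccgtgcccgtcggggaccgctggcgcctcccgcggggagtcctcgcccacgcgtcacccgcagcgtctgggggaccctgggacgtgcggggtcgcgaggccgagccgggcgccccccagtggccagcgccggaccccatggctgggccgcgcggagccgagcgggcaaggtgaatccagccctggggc

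Both strands of these windows were searched for motifs of factors known to act after cyclic AMP or calcium signals. The glucocorticoid response element and core promoter motifs were searched as well. Members were counted as genes with a match in any of their windows, and the shares over all genes are of single windows. These 2 units differ where a gene has several windows. The cyclic AMP response element TGACGTCA was in 0 of 25 member genes and in 1.79% of 32851 windows of all genes. The NR4A motif AAAGGTCA was in 0 of 25 and in 1.51% of all windows. The AP-1 motif TGANTCA was in windows of Adra1b, Hrh1, Htr2b and Htr2c and in 7.81% of all windows. The GC box was found for 16 of 25 genes and in 35.7% of all windows. Of the 25, Adra2a was the one with TATAAA, which 13.6% of all windows hold. A match describes letters in a window and shows no binding.

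Htr7 encodes the 5-HT7 receptor, which couples to Gs and raises cyclic AMP. It lies on chromosome 19 at 35936134 to 36034907 (GRCm39) and shares no exon base with another annotated gene. Its level was 25.4, 25.3, 26.1, 29.2 and 27.4 CPM in restraint libraries 1 to 5, against 31.9, 34.3, 31.1, 30.1 and 29.2 CPM in control libraries 1 to 5. All 5 restraint libraries were below the control median, and only restraint 4 reached the range of the controls, passing control 5 by less than the rounding. The means were 26.7 ± 1.65 CPM in restraint and 31.3 ± 1.94 CPM in control libraries (SD, n = 5 each), with a log2 fold change of -0.23 ± 0.08 (SE). The p of 0.0128 in edgeR became 0.275 after adjustment over all genes. Leaving out each library in turn gave unadjusted p-values of 0.00878 to 0.0402 and log2 fold changes of -0.26 to -0.19. Markers of serotonin neurons summed to 9.46 to 118.5 CPM in restraint and 50.1 to 146.9 CPM in control libraries. All 4 had a negative fold change, as Htr7 did, with a median log2 fold change of -0.52, and their part in the Htr7 difference was not tested. Htr7 had the smallest spread between libraries of a group of any member, a coefficient of variation of 6.21%.

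The serotonin receptor genes were led by Htr2c, whose product is a Gq/11-coupled receptor with strong activity in the absence of ligand and with edited transcripts. It lies on chromosome X at 145745509 to 145980273 (GRCm39). It had 169, 127, 155, 183 and 171 CPM in restraint libraries, against 180, 186, 165, 165 and 146 CPM in control libraries. The lowest value was restraint 2, the highest control 2, and the groups overlapped over most of their range. The means were 161 ± 21.6 CPM in restraint and 168 ± 15.8 CPM in control libraries (SD, n = 5 each), and the log2 fold change was -0.06 ± 0.10 (SE; adjusted p 0.869, edgeR). The level of Htr2c was 3.41 to 5.38 times that of Htr2a, a Gq/11-coupled receptor and target of hallucinogens, in the same library.

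Among the other serotonin receptors, Htr1b and Htr1d encode Gi/o-coupled receptors of nerve endings that curb transmitter release. Htr1b had 19.4 to 26.8 CPM in restraint and 23.9 to 28.8 CPM in control libraries, with a log2 fold change of -0.12 ± 0.10 (SE). An antisense gene, D430036J16Rik, with 751 counts in all libraries, overlaps 18.04% of its exon bases. Strands were not told apart, and how reads in these shared bases were counted was not tested. Htr1d had 4.88 to 6.93 CPM in restraint and 4.53 to 7.71 CPM in control libraries, and 0 restraint libraries stood above the control median. Htr2a had 19.1 to 32.3 CPM in restraint and 19.5 to 24.2 CPM in control libraries, with restraint 4 above all the others. Htr5a, a Gi/o-coupled receptor, had 7.28 to 12.8 CPM in restraint and 6.61 to 11.7 CPM in control libraries, with a log2 fold change of 0.28 ± 0.18 (SE). Without control 2, the highest control, that value was 0.44 with an unadjusted p of 0.0177 and an adjusted p of 0.292 (edgeR).

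The Gs-coupled serotonin receptors other than Htr7 were low. Htr6 had 0.8004 to 1.28 CPM in restraint and 0.989 to 2.02 CPM in control libraries. Htr4 had 1.33 to 1.99 CPM in restraint and 1.62 to 2.38 CPM in control libraries, with all restraint libraries below the control median. Htr1f, a Gi/o-coupled receptor, had 0.211 to 0.835 CPM in restraint and 0.282 to 0.638 CPM in control libraries. In level per kilobase the serotonin order was Htr2c, Htr7, Htr1b, Htr2a, Htr1d, Htr5a, Htr6, Htr4, Htr1f and Htr2b. Htr1b stood above Htr2a in 8 of 10 libraries and Htr1d above Htr5a in 7, and every other neighbouring pair kept its order in 10 of 10. Of the 9 tested, 2 had positive and 7 negative fold changes, with a median log2 fold change of -0.14.

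After Adra2a, the adrenergic genes were led by Adra1b, which encodes a Gq/11-coupled alpha-1 receptor. It lies on chromosome 11 at 43665433 to 43792037 (GRCm39). Adra1b had 13.7, 15.2, 15.1, 21.1 and 17.9 CPM in restraint libraries, against 15.6, 21.4, 15.8, 18.1 and 20.1 CPM in control libraries. Restraint 1, 2 and 3 lay below all controls and restraint 4 near the top of the controls, so the groups overlapped. The log2 fold change was -0.13 ± 0.13 (SE; adjusted p 0.758, edgeR). Adrb1, the Gs-coupled beta-1 receptor of heart and brain, had 10.1 to 18.3 CPM in restraint and 11.6 to 13.96 CPM in control libraries, the restraint libraries on both sides of the controls. Adra2c, a Gi/o-coupled receptor, had 5.05 to 10.8 CPM in restraint and 5.66 to 8.88 CPM in control libraries.

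The remaining adrenergic genes had few counts. Adrb3, the Gs-coupled beta-3 receptor of fat cells, had 2.35 to 3.74 CPM in restraint and 2.54 to 3.91 CPM in control libraries, and Gm45470 shares 24.9% of its exon bases. Adra1a, a Gq/11-coupled receptor, had 1.16 to 2.68 CPM in restraint and 1.76 to 2.93 CPM in control libraries. Adra1d, also coupled to Gq/11, had 0.437 to 2.08 CPM in restraint and 1.01 to 1.56 CPM in control libraries. Its log2 fold change of -0.37 ± 0.36 (SE) became -0.84, with an unadjusted p of 0.0196 and an adjusted p of 0.264, when restraint 5 was left out (edgeR). Adra2b, a Gi/o-coupled receptor, had 0.0364 to 0.422 CPM in restraint and 0.0824 to 0.731 CPM in control libraries, and its log2 fold change of -0.40 ± 0.68 (SE) became 0.25 without control 5. The adrenergic order of levels was Adra2a, Adra1b, Adrb1, Adra2c, Adrb3, Adra1d, Adra1a and Adra2b, with Adra1b above Adrb1 in 9 libraries, Adrb3 above Adra1d in 8, and every other neighbouring pair in 10 of 10.

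The muscarinic receptor genes showed a pair at nearly the same level and 3 that were lower. Chrm2, on chromosome 6 at 36365019 to 36505349 (GRCm39), encodes the Gi/o-coupled M2 receptor that restrains acetylcholine release. It had 29.3, 29.4, 25.9, 31.8 and 32.4 CPM in restraint libraries, against 25.3, 37.4, 31.7, 29.1 and 23.0 CPM in control libraries. The restraint libraries lay inside the range of the controls, and the log2 fold change was 0.02 ± 0.12 (SE; adjusted p 0.968, edgeR). Chrm3, on chromosome 13 at 9925522 to 10410883 (GRCm39), encodes the Gq/11-coupled M3 receptor. It had 29.7, 22.1, 30.2, 31.5 and 29.9 CPM in restraint libraries, against 35.3, 31.8, 28.8, 27.7 and 34.3 CPM in control libraries. Restraint 2 lay below all the other libraries, and the other 4 restraint libraries lay above the 2 lowest controls and below the control median. Its log2 fold change was -0.14 ± 0.11 (SE; adjusted p 0.672, edgeR). In level, Chrm2 at 4.88 and Chrm3 at 4.82 CPM per kilobase could not be ordered, since Chrm2 was higher in 7 of 10 libraries, and in CPM without division by length Chrm3 had the higher mean but was higher in 4 of 10.

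Chrm4 and Chrm1, a Gi/o-coupled and a Gq/11-coupled receptor of the forebrain, had levels of 0.958 and 0.855 CPM per kilobase, with Chrm4 the higher in 6 of 10 libraries. Chrm4 had 0.904 to 1.94 CPM in restraint and 1.01 to 1.75 CPM in control libraries, and Chrm1 had 3.88 to 6.29 CPM in restraint and 5.18 to 6.97 CPM in control libraries. Chrm5 encodes the Gq/11-coupled M5 receptor, the muscarinic receptor best known from midbrain dopamine neurons. It had 10, 6, 40, 127 and 52 counts in restraint libraries, against 69, 88, 23, 12 and 41 counts in control libraries. That is 0.144, 0.0904, 0.728, 1.89 and 0.607 CPM in restraint and 1.08, 1.17, 0.342, 0.165 and 0.714 CPM in control libraries. Low and high libraries occurred in both groups. The spread between libraries of a group was 86.8% as a coefficient of variation, against 20.7% from counting read pairs alone. Its level was 0.0116 to 0.226 times that of Chrm2 in the same library, and its log2 fold change was -0.00 ± 0.68 (SE), or -0.82 without restraint 4, its highest library.

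**Figure D3:**
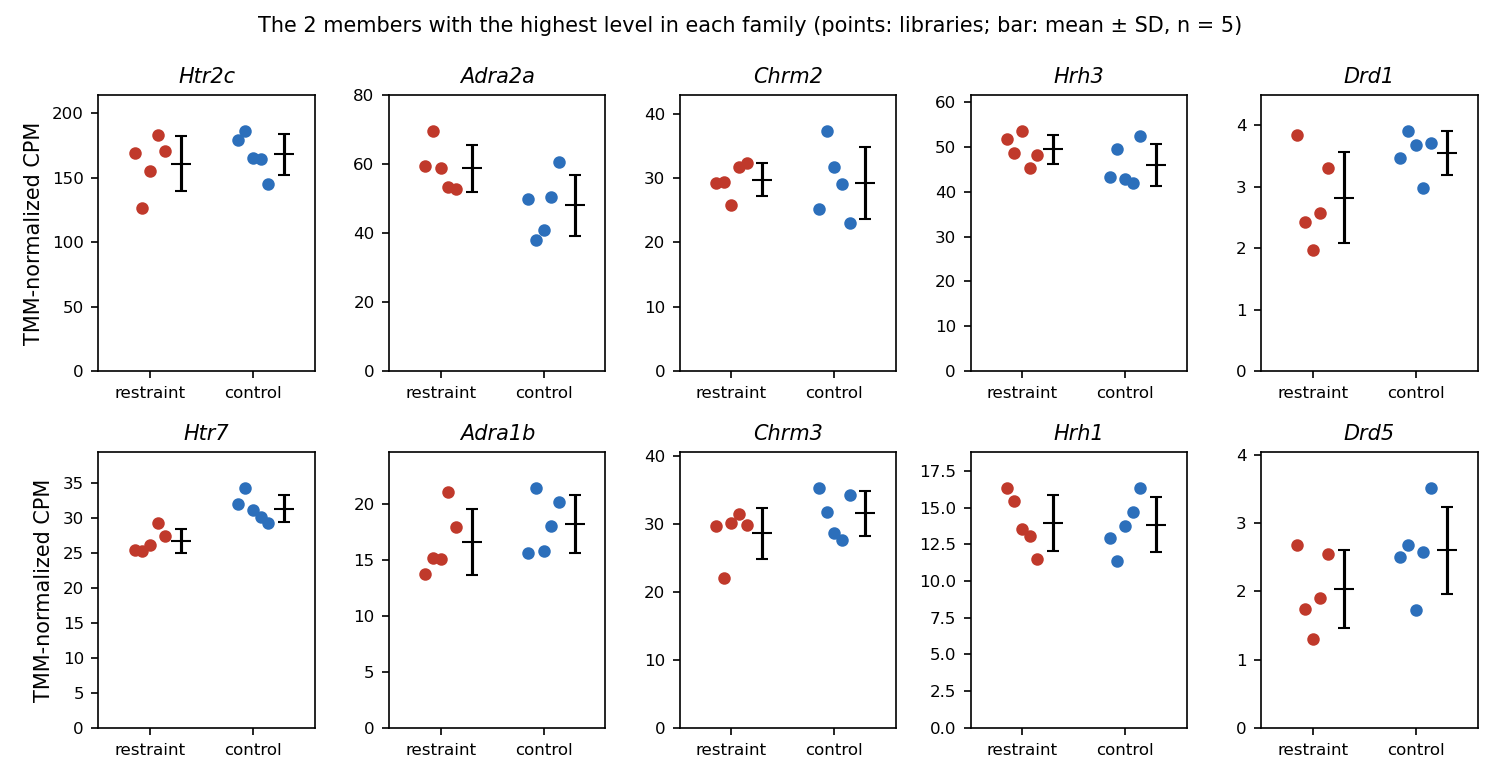
TMM-normalized CPM of the 2 members with the highest level in each family, with 1 point per library and the mean ± SD (n = 5) beside the points, restraint left and control right, on axes that start at 0. Adra2a is higher and Htr7 lower on average after restraint, and in each panel the 2 groups overlap.

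Of the histamine receptor genes, Hrh3 encodes the Gi/o-coupled H3 receptor, which sits on histamine and other nerve endings and curbs release. It lies on chromosome 2 at 179741258 to 179746281 (GRCm39), and Gm17180 on the opposite strand, with 91 counts in all libraries, shares 11.1% of its exon bases. Hrh3 had 51.7, 48.6, 53.6, 45.4 and 48.3 CPM in restraint libraries, against 43.3, 49.5, 42.9, 42.1 and 52.5 CPM in control libraries. All restraint libraries stood above the control median, while control 2 and control 5 lay among them. The means were 49.5 ± 3.19 CPM in restraint and 46.1 ± 4.65 CPM in control libraries (SD, n = 5 each), and the log2 fold change was 0.10 ± 0.09 (SE; adjusted p 0.703, edgeR).

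Hrh1, the Gq/11-coupled H1 receptor on which sedating antihistamines act, lies on chromosome 6 at 114374897 to 114460257 (GRCm39). It had 16.3, 15.4, 13.6, 13.1 and 11.5 CPM in restraint libraries, against 12.9, 11.3, 13.8, 14.7 and 16.3 CPM in control libraries. Both groups covered nearly the same range, and the log2 fold change was 0.02 ± 0.12 (SE; adjusted p 0.979, edgeR). Hrh2, the Gs-coupled H2 receptor, had 6.03 to 10.4 CPM in restraint and 6.22 to 11.8 CPM in control libraries. The order Hrh3, Hrh1, Hrh2 held in 10 of 10 libraries, with the level of Hrh3 at 4.04 to 6.17 times that of Hrh1. Hdc, which encodes the enzyme that makes histamine, had 22.6 ± 7.58 CPM in restraint and 24.9 ± 10.96 CPM in control libraries (SD, n = 5 each).

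The dopamine receptor genes of the set were the lowest family, and none of the 4 reached 1 CPM per kilobase as a mean of 10 libraries. The set does not hold Drd2, so this place is not that of all dopamine receptor genes. Drd1, on chromosome 13 at 54205202 to 54209724 (GRCm39), encodes the Gs-coupled D1 receptor of striatal and cortical neurons. It had 3.84, 2.43, 1.97, 2.58 and 3.31 CPM in restraint libraries, against 3.48, 3.91, 3.67, 2.98 and 3.71 CPM in control libraries. Restraint 2, 3 and 4 lay below all controls and restraint 1 lay near the top, so the groups overlapped. The log2 fold change was -0.33 ± 0.19 (SE; adjusted p 0.554, edgeR), and without restraint 1, the library that stood apart, it was -0.46 with an unadjusted p of 0.0282 and an adjusted p of 0.345. Drd5, the Gs-coupled D5 receptor, lies on chromosome 5 at 38476710 to 38479861 (GRCm39). It had 2.68, 1.75, 1.31, 1.91 and 2.54 CPM in restraint libraries, against 2.51, 2.69, 1.73, 2.58 and 3.52 CPM in control libraries. Restraint 3 was the lowest library and control 5 the highest, with the rest mixed. Its log2 fold change was -0.35 ± 0.24 (SE; adjusted p 0.621, edgeR), and 48.6% of its exon bases are shared with Gm26560, which had 17 counts in all. The level of Drd5 divides by all its exon bases, shared ones included. Whether this bears on its order against Drd1 was not tested.

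Drd4, a Gi/o-coupled receptor, had 0 to 0.721 CPM in restraint and 0.0532 to 0.220 CPM in control libraries. Its level of 0.0616 CPM per kilobase and that of Drd3, 0.120, could not be ordered, since Drd3 was higher in 5 of 10 libraries. Drd1 stood above Drd5 in 9 libraries and Drd5 above Drd3 in 10. The log2 fold change of Drd3 was -0.66 ± 0.77 (SE; adjusted p 0.809, edgeR), and that of Drd4 was 0.82 ± 0.80 (SE; adjusted p 0.757, edgeR). The highest Drd4 library was restraint 1, with 50 counts, and leaving it out gave a log2 fold change of 0.04. With limma-voom and all libraries it was 0.21.

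Grouped by the G protein that the receptors mainly couple to, 12 of the 30 are Gi/o, 10 Gq/11 and 8 Gs receptors. These classes are textbook assignments that were written down after the counts had been seen. The Gi/o class held 42.6 to 50.2% of the summed level in restraint libraries and 41.8 to 45.2% in control libraries. The Gq/11 class held 33.1 to 40.5% in restraint and 36.5 to 39.8% in control libraries. The Gs class held 15.9 to 17.5% in restraint and 18.2 to 19.2% in control libraries, so the ranges of this share did not overlap. The summed Gs level itself did overlap, at 15.3 to 17.7 CPM per kilobase in restraint and 17.1 to 19.4 CPM per kilobase in control libraries. The summed Gi/o level, which enters the same whole, was 44.4 to 46.3 CPM per kilobase in restraint and 40.6 to 44.9 CPM per kilobase in control libraries. The mean Gs share was 16.9% in restraint and 18.5% in control libraries, a difference of -1.63 percentage points. Without Htr7 in the sums the Gs share was 8.82 to 10.5% in restraint and 9.68 to 10.6% in control libraries, and the difference was -0.43 points, with overlap. In CPM without division by exon length, the Gs share was 10.96 to 12.62% in restraint and 12.54 to 13.26% in control libraries. The groups overlapped on that scale too. The 3 class shares are parts of 1 whole, given as a description with no test. Of the 8 Gs genes, 7 had a negative fold change (median log2 fold change -0.24) and Adrb1 a positive one, against 7 of 12 negative for Gi/o and 7 of 9 for Gq/11.

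**Figure D4:**
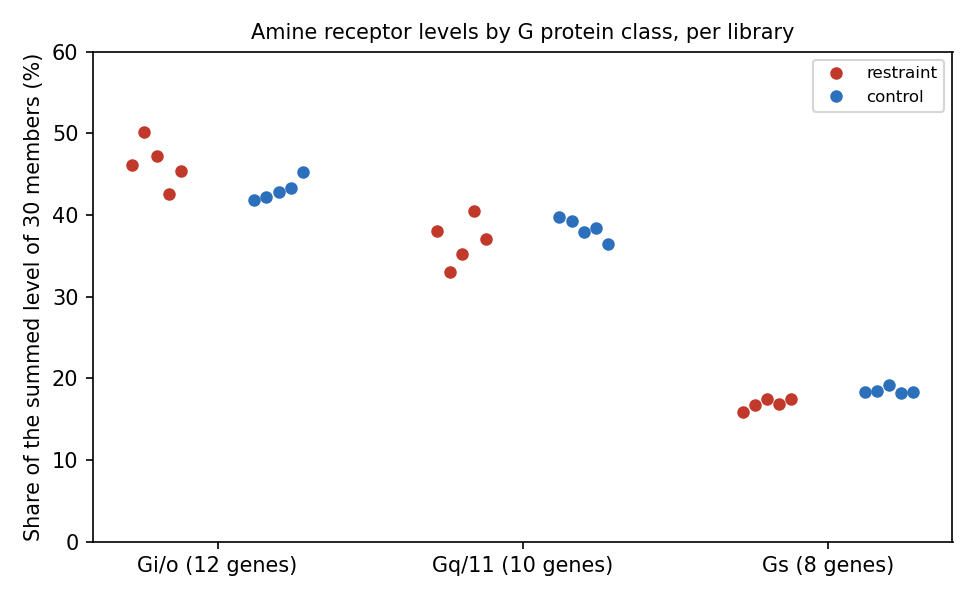
Share of the summed level of the 30 members (percent, axis from 0) held by genes of each G protein class, with 1 point per library, restraint left and control right. The restraint points for Gs, 15.9 to 17.5%, lie below the control points, 18.2 to 19.2%, and the other classes overlap.

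The spread between libraries differed widely among the members. For all 30 the coefficient of variation within groups exceeded that from counting read pairs alone, by 1.24 to 8.63 times. It was 6.21 to 26.1% for the 21 members with a median of at least 100 counts. Htr2c had the smallest counting error, 1.33%, and a spread of 11.5%. Htr4, with 15.4% against 12.4% from counting, was nearly at the counting limit.

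**Figure D5:**
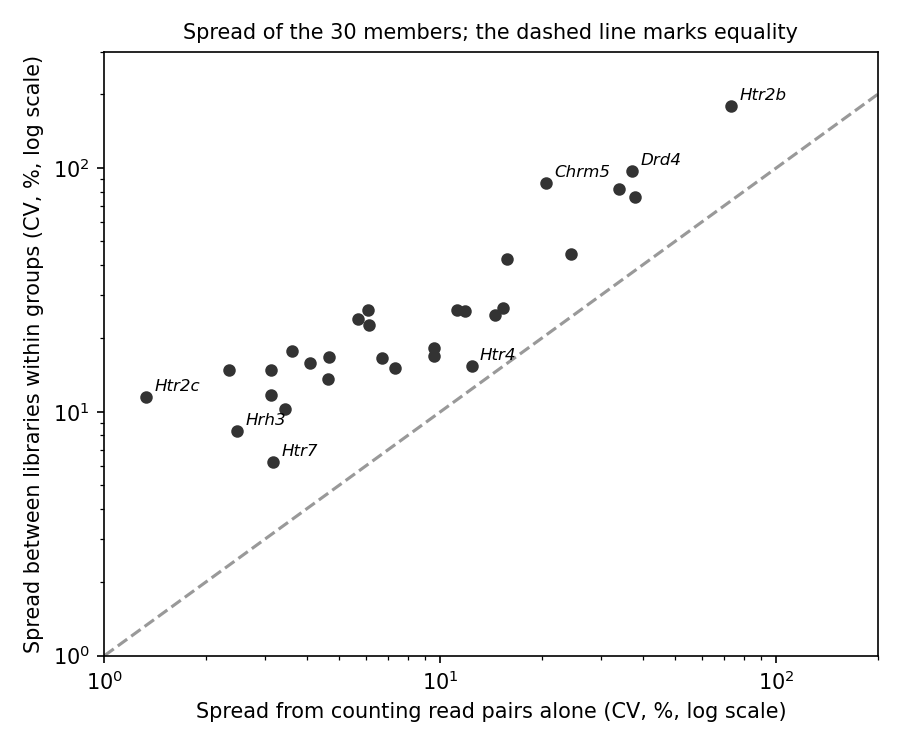
Coefficient of variation between libraries of a group (percent, log scale) against the value expected from counting read pairs alone (percent, log scale), with 1 point per member and the dashed line at equality. All 30 points lie above the line, from Htr7 with the smallest spread of 6.21% to Htr2b, which has the fewest counts.

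Genes that act after these receptors were taken from 7 lists, of which 63 of 64 genes could be tested. None passed the threshold in edgeR, DESeq2 (no adjusted p for 7) or limma-voom. At an unadjusted p under 0.05 there were 7 higher and 3 lower with edgeR, 15.9% of the 63 against 11.7% of all genes, and the median log2 fold change was -0.01. For the cyclic AMP arm, an unadjusted p under 0.05 was found for 0 of 9 adenylyl cyclases with edgeR. It was also found for 0 of 7 genes of the protein kinase A list, which holds kinase subunits and Ppp1r1b. Prkaca, a catalytic subunit, had 357.5 ± 22.8 CPM in restraint and 395.8 ± 22.1 CPM in control libraries (SD, n = 5 each). Adcy1, a calcium-stimulated adenylyl cyclase, had 56.9 ± 6.86 CPM in restraint and 61.3 ± 13.4 CPM in control libraries (SD, n = 5 each). Of 9 phosphodiesterases tested, Pde1b, which degrades cyclic nucleotides when calcium rises, had 131 ± 13.7 CPM in restraint and 149.7 ± 14 CPM in control libraries (unadjusted p 0.0445, adjusted p 0.413, edgeR).

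For the Gq/11 arm, Itpr2, an inositol trisphosphate receptor that releases calcium and is known from glia, had 13.7 to 16.2 CPM in restraint and 11.3 to 12.97 CPM in control libraries. Its groups did not overlap, as for 1.25% of all genes tested on the higher side. Its log2 fold change was 0.31 ± 0.10 (SE; unadjusted p 0.00527, adjusted p 0.211, edgeR). The astrocyte marker sum was on the same side, with overlapping groups and with 5 of 7 markers positive and 2 negative. Its part in the Itpr2 difference was not tested. Itpr2 had the smallest p of the 7 phospholipase C beta and IP3 receptor genes, of which 6 had a positive and 1 a negative fold change. Among 10 G protein alpha subunits, Gnai2 had 312 ± 19.2 CPM in restraint and 271 ± 24.0 CPM in control libraries, and Gnai3 had 28.3 ± 4.46 CPM in restraint and 34.4 ± 4.08 CPM in control libraries (SD, n = 5 each). These 2 subunits of the Gi class thus had fold changes of opposite sign, 0.20 ± 0.08 and -0.28 ± 0.12 on the log2 scale (SE), with adjusted p-values of 0.303 and 0.341 (edgeR).

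Receptor kinases, which tag active receptors so that arrestins can bind, gave 2 of 7 genes of their list with an unadjusted p under 0.05, both on the higher side, where 5.64% of all genes were. Grk3 had 70.1 to 83.6 CPM in restraint and 60.7 to 67.0 CPM in control libraries, without overlap, as for 1.25% of all genes tested on the higher side. Its log2 fold change was 0.21 ± 0.08 (SE; adjusted p 0.291, edgeR). Grk2 had 241 ± 21.4 CPM in restraint and 202 ± 28.7 CPM in control libraries (SD, n = 5 each; adjusted p 0.304, edgeR). Among 14 regulators of G protein signalling, which speed the shut-off of G proteins, 3 were on the higher and 1 on the lower side at that p, against 5.64% and 6.04% of all genes. Rgs20 had a log2 fold change of 0.30 ± 0.10 and Rgs8 of -0.27 ± 0.11 (SE), with adjusted p-values of 0.247 and 0.329 (edgeR). Rgs20 shares 5.95% of its exon bases with Atp6v1h, which had 131416 counts in all.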

How the data were processed

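Ribosome-bound RNA of 10 libraries was sequenced, 5 after restraint and 5 controls, grouped by the sample labels. The deposited table holds whole-number counts per gene and library, which the authors made with featureCounts 2.0.3 on the exons of GENCODE M30, per the file headers. The same table gives the exon length of each gene. Strands were not told apart, each mate of a pair was counted and reads mapping to several places were left out, going by the options in the file headers. FastQC, Trimmomatic and STAR are the upstream tools named in the submitters' processing notes. These notes give mm10, while M30 annotates GRCm39, and 93.9% of 52071 genes matched to GENCODE M21 (GRCm38) started more than 10000 bases elsewhere, so gene coordinates are those of GRCm39. Even numbers made up 80.01 to 84.8% of counts of 1 to 30 in restraint and 76.8 to 79.8% in control libraries, and the part of this difference in the results was not tested.

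Of 56691 genes, 52073 were given a symbol by identifier. edgeR 4.0.16 in R 4.3.3 (filterByExpr with count minimum 10 and total minimum 15, TMM, glmQLFit and glmQLFTest, group as the only term) tested 18440 genes, with Benjamini-Hochberg adjustment over all of them and a threshold of 0.05. CPM are TMM-normalized, levels are CPM per kilobase of exon, and the counting error assumes that each read pair gave 2 counts. Exon bases shared with another gene came from the coordinates in the table: 21 members share none. Levels divide by all exon bases of a gene, shared ones included, and whether reads in shared bases were counted was not tested. Alternatives were RLE and library size scaling, a filter of at least 1 count or of a CPM of at least 1 in 5 libraries, DESeq2 1.42.0, limma-voom 3.58.1, robust estimation, a replicate block, halved counts, each library left out, and levels without division by length. Sums without Htr7, and the Gs share without division by length, were added after the data were seen. On simulated data of 18110 genes for this comparison, the edgeR test recovered 78% of 1.5-fold and 97% of 2-fold changes among 200 genes with a mean of at least 100 counts, and 2.8% of 180 calls were unchanged genes. The simulation gave each gene the spread typical of its count level and changed 200 genes. Real genes have their own spread, and edgeR called 4 of them in the real data. These shares therefore do not give the recovery to expect among the members. Figures and summaries used Python 3.11.15.

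The members and the gene lists were chosen with earlier results of these data known. Values per library are given for members with an unadjusted p under 0.05 and for the 2 with the highest level in each family. Of the pathway lists, genes past the threshold would be named, and otherwise up to 2 with the smallest p of each list. Chrm5 and Htr2b are given per library for their spread and few counts, chosen after their values were seen. Promoter sequences are RefSeq's. Protein sequences are not used here, and some receptor genes of these families are not analysed here.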

Additional observations from a re-analysis of the deposited data

Results flagged for a closer look

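Of 60 groups of 5 libraries (30 members in restraint and control), 6 held 1 library far from the other 4 by Dixon's criterion (gap over range above 0.71), where chance marks about 1 group in 20. In restraint libraries, Htr6 was 0.8004 CPM in restraint 3, from 44 counts, against 1.16 to 1.28 CPM in the others. Adra1d was 2.08 CPM in restraint 5, from 178 counts, against 0.437 to 0.910 CPM in the others. Chrm3 was 22.1 CPM in restraint 2, against 29.7 to 31.5 CPM in the others. In control libraries, Htr1d was 4.53 CPM in control 5, from 260 counts, against 6.99 to 7.71 CPM in the others. Htr5a was 11.7 CPM and Chrm1 6.97 CPM in control 2, against 6.61 to 7.91 CPM and 5.18 to 5.43 CPM in the other controls.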

How the results depend on the processing

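No member passed the threshold in any alternative run; the smallest adjusted p was 0.139, for Htr7 with DESeq2, which gave none for 13 members. Over all genes, the count of 1 higher and 3 lower became 5 and 12 with library size only, 103 and 199 over all genes with at least 1 count, 139 and 192 with DESeq2, and 0 and 0 with robust estimation and with the replicate block; the cause was not tested. Same-numbered libraries did not vary together (correlations of -0.164 to 0.027), so the numbers are not taken to pair libraries; with the block Htr7 had an adjusted p of 0.5 and Adra2a of 0.533. Leaving out each library gave 0 to 9 higher and 0 to 83 lower genes, both highest without restraint 5, and 0 to 1 higher and 1 to 2 lower members at an unadjusted p under 0.05. With all libraries kept, the sign turned for Chrm5 alone (0.00 over all genes with a count, 0.0003 with DESeq2, 0.0012 with halved counts). With 1 library left out, 12 members turned in sign at least once, with log2 fold changes of -0.47 to 0.0239 for Htr1f, -0.0344 to 0.17 for Htr2a, -0.12 to 0.0059 for Htr2c, -0.77 to 0.25 for Adra2b, -0.20 to 0.0869 for Adra2c, -0.15 to 0.0023 for Adrb3, -0.11 to 0.038 for Chrm1, -0.0593 to 0.13 for Chrm2, -0.17 to 0.0916 for Chrm4, -0.82 to 0.28 for Chrm5, -0.0418 to 0.0746 for Hrh1 and -0.17 to 0.13 for Hrh2; 17 never did. Without division by length, 4 serotonin, 2 adrenergic, 4 muscarinic and 2 dopamine members took another place in their family. The Gs difference of -1.63 points became -0.43 without Htr7 and -1.05 without division by length, and in both of these the groups overlapped. Few counts limit the 9 members with a median under 100. With halved counts, Adra2b, Drd3 and Drd4 did not pass the filter and were not tested. With the filter on CPM, Htr1f and Chrm5 were not tested either.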

Other observations

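Markers of transmitter neurons that release the ligands of these receptors were also counted. Serotonin neuron markers were led by Tph2, the enzyme of brain serotonin synthesis, at 46.0 ± 38.5 CPM in restraint and 68.9 ± 32.1 CPM in control libraries (SD, n = 5 each). Noradrenaline neuron markers summed to 0.0865 to 1.31 CPM in restraint and 0.139 to 1.18 CPM in control libraries over 4 genes, 1 of which could be tested. Cholinergic markers summed to 2.97 to 15.2 CPM in restraint and 3.00 to 12.6 CPM in control libraries. Of 53 cell type markers tested, edgeR and limma-voom called 0. With edgeR 10 had an unadjusted p under 0.05, all on the higher side, or 18.9% against 11.7% of all genes. DESeq2, which called 1.8% of all genes, gave no adjusted p for 15 markers. It called 4, En1, Foxa2, Gfap and Slc10a4, all on the higher side. En1, Foxa2 and Slc10a4 belong to the dopamine neuron list. With edgeR, 4 of the 9 genes of that list had an unadjusted p under 0.05, all on the higher side, where 5.64% of all genes were. Gfap, an astrocyte filament gene, had 2471 ± 316 CPM in restraint and 1919 ± 121 CPM in control libraries (SD, n = 5 each; edgeR adjusted p 0.118). Vascular markers summed to 13.8 to 23.3 CPM in restraint and 11.5 to 17.0 CPM in control libraries over 7 genes. Whether these markers bear on the receptor values was not tested.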
